A study of Homo sapiens with 12 samples.

Results

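The BCL2 family of apoptosis regulators was followed through 10 of its genes in Rh30 cells, an alveolar rhabdomyosarcoma line that carries the PAX3-FKHR fusion of the transcription factors PAX3 and FOXO1. The genes were BCL2, BCL2L1, BCL2L2, MCL1, BAX, BAK1, BID, BCL2L11, PMAIP1 and BBC3. They were chosen by gene name on Agilent whole human genome arrays, which gave 22 of the 41000 gene probes, between 1 and 4 per gene. Each array compared a Cy5-labeled with a Cy3-labeled RNA from 2 of 3 cultures. WT was untransfected parental Rh30, CON was Rh30 stably expressing a non-targeting control shRNA, and KD1 was Rh30 stably expressing an shRNA against PAX3-FKHR. CON and KD1 were each a single stable clone kept in puromycin at 1 μg/mL, while WT received none, so a difference from WT to a clone cannot be told apart from clone selection or puromycin. KD1 and CON differ in clone as well as in shRNA, so an effect of the knockdown cannot be told apart from a difference between clones. All cultures were harvested 24 h after plating, and each had 2 biological replicates. Every pair of cultures was hybridized in both replicates, each time with the dyes swapped, giving 12 arrays from 6 RNA extracts and ratios of WT to CON, of KD1 to CON and of KD1 to WT.

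The family governs whether the outer mitochondrial membrane is opened during apoptosis. BAX and BAK1 form the pores that release cytochrome c. BCL2, BCL2L1 (BCL-XL), BCL2L2 (BCL-w) and MCL1 hold these effectors in check, and BH3-only proteins such as BID, BCL2L11 (BIM), PMAIP1 (NOXA) and BBC3 (PUMA) counter the protective members or engage the effectors directly. PMAIP1 and BBC3 are well-known targets of p53, and BCL2L11 is a known target of FOXO factors.

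The probes are shown for the genes with the largest ratios, because probes of the same gene did not always give the same result. BCL2 had a probe near the 3′ end of the gene (chr18:58941703-58941762, minus strand, NCBI36) and another 194 kb upstream (chr18:59136115-59136150 for its placed bases). The first 30 of 60 bases of each are given, 5′ to 3′, with no part in capitals.
BCL2 A_23_P352266: tggctgatattctgcaacactgtacacata
BCL2 A_23_P208132: atcagagttgttgcttcccggcgtccctac
BCL2L11 had 4 probes, and A_23_P309991 (chr2:111638189-111638248, plus strand) and A_23_P425954 (chr2:111638203-111638262, plus strand) share 46 bases, in capitals below, so their values do not count as separate evidence.
BCL2L11 A_23_P309991: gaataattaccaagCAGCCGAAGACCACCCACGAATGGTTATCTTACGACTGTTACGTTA
BCL2L11 A_23_P425954: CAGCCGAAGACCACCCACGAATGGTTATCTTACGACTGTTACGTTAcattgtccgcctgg
PMAIP1 had a single probe (chr18:55721258-55721317, plus strand), of which the first 30 bases are shown, and BBC3 had 3 probes. Of these, A_24_P305312 (chr19:52416927-52416986, minus strand; 60.0% G or C) is shown whole and A_23_P90189 (chr19:52423274-52423333, minus strand; 85.0% G or C) by its first 30 bases, since their results differed.
PMAIP1 A_23_P207999: ttagagaatcgttctagtgtttttgccgaa
BBC3 A_24_P305312: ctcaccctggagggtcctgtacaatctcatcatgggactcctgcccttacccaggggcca
BBC3 A_23_P90189: cccgccgtcaccgccgccctggggggttcc

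The share of spots well above background was between 64.4% and 67.8% on the Cy5 side and between 71.1% and 73.6% on the Cy3 side, and no spot was saturated. All 5 rhabdomyosarcoma markers examined, MYOD1, MYOG, DES, CHRNA1 and CDH15, were well above background on all 8 arrays of every culture, and the leukocyte marker PTPRC and the hepatocyte marker ALB on none. Of the other markers, KRT14 and PECAM1 were well above background on all 8 arrays of every culture by at least 1 probe, and CDH5 on 2 or 3 of 8. The epithelial marker EPCAM was well above background only in WT replicate 2, with a log2 signal of 7.36 against 1.77 to 1.98 in the other 5 extracts. Its part in the results was not tested, and the values without that extract are given where they bear on a result. The 5 probes of PAX3 and FOXO1 can detect the unfused genes. Which of them lie in sequence kept in the fusion was not settled here. The PAX3 probe A_23_P209499 (chr2:222773025-222773084, minus strand) lies toward the 3′ end from the other PAX3 probes. It had fitted log2 differences of -0.10 for KD1 relative to CON and 0.06 relative to WT. The remaining probes lay between -0.43 and -0.30 relative to CON and between -0.59 and -0.24 relative to WT. No probe passed an adjusted p of 0.05.

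A ratio is given on the log2 scale as the mean of the dye-swap pair of each replicate. The fitted difference comes from limma, which uses the direct ratio and the indirect one through the third culture, and a probe was called where its p, adjusted by Benjamini-Hochberg over all probes tested, was under 0.05. In WT vs CON, 1 of 22 member probes was called, a BCL2 probe that passed the signal limit through WT alone, against 0.493% of all 26566 probes tested, and 5 had an unadjusted p under 0.05 (17.1% of all probes tested). In KD1 vs CON, limma called 0 of the 20 member probes tested, where 0.734% of 21925 probes were called, and 1 had an unadjusted p under 0.05 (17.0% of all probes tested). In KD1 vs WT it called 0 of 22, where 0.447% of 24860 probes were called, and 8 had an unadjusted p under 0.05 (36.4%, against 16.9% of all probes tested). These 8 were 1 of BCL2L1, 4 of BCL2L11 (with an overlapping pair), 1 of PMAIP1 and 2 of BBC3. The share thus counts some genes more than once and is not a share of genes. Without WT replicate 2, 6 of 22 had one, as did 7448 of all 24865 probes tested, and the members' median difference was 0.41. The median fitted difference of the member probes was 0.03 for KD1 relative to CON, beside -0.02 over all tested probes. It was 0.37 for KD1 relative to WT, beside 0.01, and -0.22 for WT relative to CON, beside -0.03. KD1 vs WT and WT vs CON share the WT extracts. With 2 extracts a culture, the p-values measure the spread between extracts of the same line or clone.

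**Figure D1:**
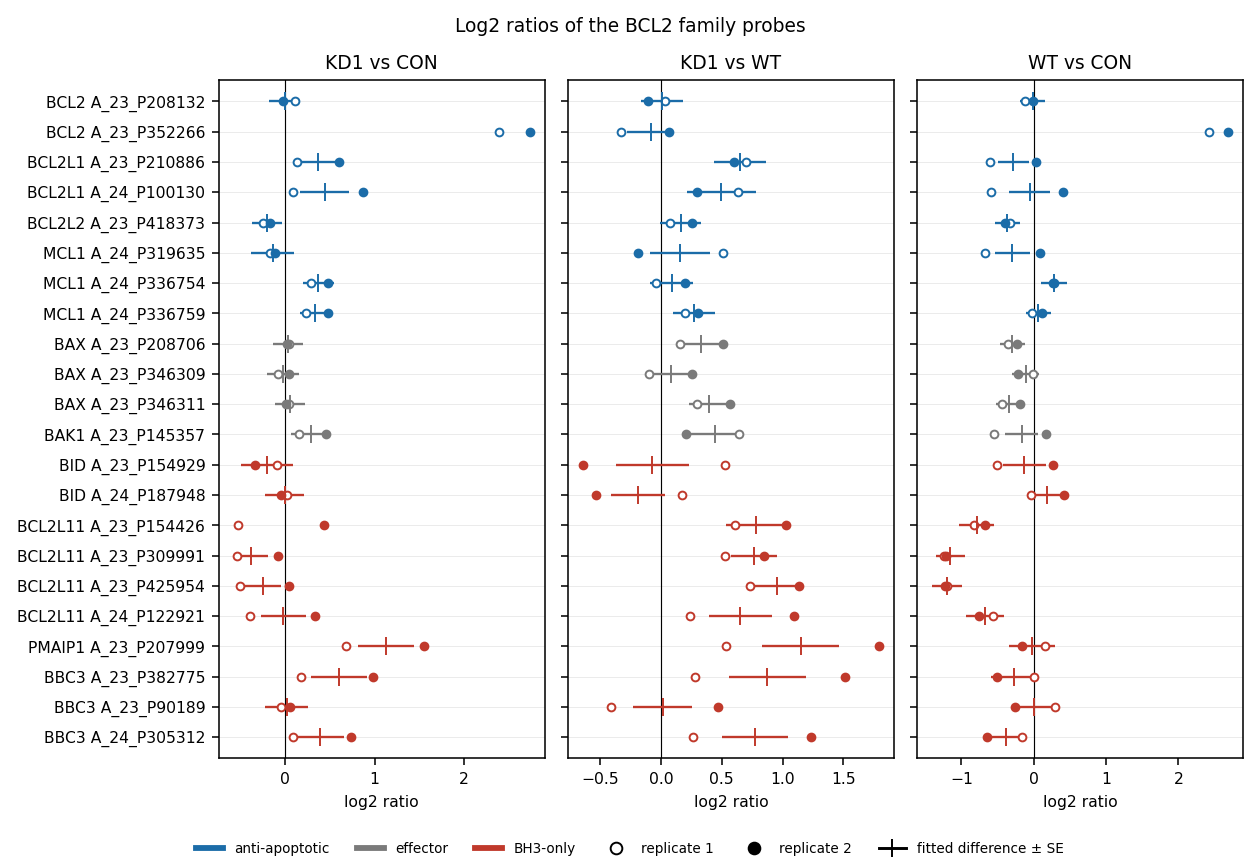
Log2 ratios of the 22 probes in the 3 comparisons, with a row for each probe and its gene's role in colour. Circles are the 2 replicate values and the bar is the fitted difference with its standard error (drawn only where the probe was tested and neither culture was below background on all its arrays). The BCL2 3′ probe lies between 2.39 and 2.73 in both comparisons with CON, PMAIP1 lies at or above 0.53 in both KD1 comparisons, and the 4 BCL2L11 probes lie below 0 in WT vs CON and above 0 in KD1 vs WT.

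BCL2, the founding protective member, differed through its 3′ probe, which, present in 10 spots on each array, gave a log2 signal of 3.37 and 3.07 in the CON extracts, 5.98 and 5.74 in WT, and 5.55 and 5.78 in KD1. The CON extracts were thus low, and WT and KD1 overlapped. The probe was well above background on none of the 8 CON arrays and on all 8 arrays of WT and of KD1. WT vs CON gave log2 ratios of 2.42 and 2.69 (adjusted p = 0.014), which set WT against signals not well above background.

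Since CON had only a background bound, no fitted difference is given for it, and the signal of WT was at least 3.82-fold higher than that of CON and the signal of KD1 at least 3.33-fold higher. The bound sets the mean signal of the brighter culture against the lowest signal well above background on each CON array. The KD1 vs CON log2 ratios were 2.39 and 2.73. They were not tested, because the probe passed the signal limit on only 2 of the 4 KD1 vs CON arrays. KD1 vs WT gave -0.33 and 0.06 (fitted -0.08 ± 0.19, adjusted p = 0.86).

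The probe passed the signal limit in WT vs CON through WT alone, the culture where it was high, so its call adds nothing to the bound. With normexp background correction and loess, which add an offset to dim signals, the log2 difference was 0.37 and the call was lost (adjusted p = 0.19; range over the alternatives 1.3e-06 to 0.19). Without WT replicate 2 the adjusted p was 0.040. All WT vs CON arrays lay on a single slide, while the KD1 vs CON ratios came from a slide for each replicate.

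The upstream BCL2 probe did not follow the 3′ probe. The files place only part of its 60 bases, so which transcript it measures was not settled here. Its log2 signal was 9.26 and 9.28 in CON, 9.24 and 9.05 in WT and 9.27 and 9.29 in KD1, well above background on all 8 arrays of every culture. The fitted difference of KD1 was -0.01 ± 0.17 relative to CON and 0.01 ± 0.17 relative to WT, and that of WT relative to CON was -0.02 ± 0.17, with adjusted p of at least 0.97. The 3 nearest tested genes on either side of the 3′ probe, chosen after its values were seen, had fitted WT vs CON differences from -0.03 (PHLPP1) to 0.67 (KIAA1468). Their KD1 vs CON differences ran from 0.13 (PHLPP1) to 1.46 (SERPINB8).

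**Figure D2:**
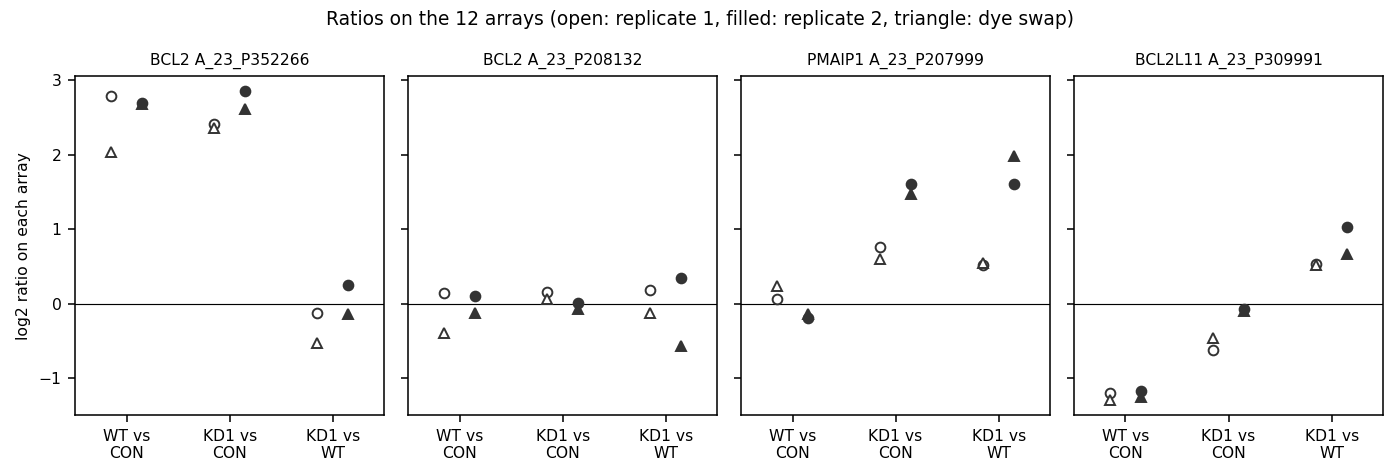
Log2 ratio on each of the 12 arrays for both BCL2 probes, the PMAIP1 probe and the BCL2L11 probe A_23_P309991, by comparison. All 8 arrays with CON gave ratios of at least 2.04 for the BCL2 3′ probe, while the upstream probe stayed between -0.56 and 0.35.

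Among the other protective members, BCL2L1 was higher in KD1 than in WT on all 4 arrays with both probes, without passing the test. Its 10-spot probe A_23_P210886 gave log2 signals of 10.09 and 9.82 in CON, 9.49 and 9.80 in WT, and 10.23 and 10.48 in KD1. The KD1 extracts were the highest and did not overlap with the other cultures. The log2 ratios of KD1 were 0.13 and 0.60 against CON (adjusted p = 0.45) and 0.70 and 0.60 against WT (fitted 0.65 ± 0.21, adjusted p = 0.23). Without WT replicate 2, the difference from WT was 0.83. The second probe gave 0.08 and 0.86 for KD1 against CON and 0.64 and 0.29 against WT (adjusted p = 0.48 and 0.42).

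MCL1, a short-lived protective member, was measured by 3 probes that differed in direction in KD1 vs CON. A_24_P336754 gave log2 ratios of 0.29 and 0.47 and A_24_P336759 gave 0.24 and 0.47, above 0 on all 4 arrays, while A_24_P319635 gave -0.17 and -0.12. The adjusted p values were 0.35, 0.39 and 0.83. In KD1 vs WT the 3 probes had fitted differences between 0.09 and 0.27, and in WT vs CON between -0.30 and 0.28. For BCL2L2, the ratios of KD1 were -0.25 and -0.17 against CON and 0.08 and 0.25 against WT, and those of WT against CON were -0.32 and -0.40 (adjusted p = 0.61, 0.67 and 0.35). The WT extracts of BCL2L2 (log2 signals of 12.15 and 12.33) overlapped with those of KD1 (12.22 and 12.64) and lay below those of CON (12.47 and 12.73).

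The effectors had small ratios. The 10-spot BAX probe gave 0.04 and 0.02 for KD1 against CON, 0.16 and 0.51 for KD1 against WT and -0.36 and -0.23 for WT against CON, and A_23_P346311 gave the same order of cultures (0.04 and 0.00, 0.29 and 0.56, -0.44 and -0.20). WT was the lowest culture with both probes, and the extracts of KD1 and CON overlapped. The third BAX probe, A_23_P346309, had fitted differences between -0.11 and 0.09. Its replicate 2 ratio in KD1 vs WT, 0.25, was the mean of 2.18 and -1.68 on the arrays of a dye-swap pair. BAK1, the other pore former, gave 0.15 and 0.46 for KD1 against CON, 0.64 and 0.21 against WT, and -0.55 and 0.17 for WT against CON. All effector probes had adjusted p of 0.31 or more in the 3 comparisons.

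BCL2L11, which encodes the BH3-only protein BIM, was lower in WT than in both clones with each of its probes on every array that compared WT with another culture. No probe passed the test. For A_23_P309991 the log2 signals were 8.12 and 7.90 in CON, 6.90 and 6.74 in WT and 7.57 and 7.72 in KD1. The 3 cultures did not overlap, with KD1 between WT and CON. The WT vs CON ratios were -1.24 and -1.21 (fitted -1.15 ± 0.19, adjusted p = 0.091), and the KD1 vs WT ratios were 0.53 and 0.85 (fitted 0.76 ± 0.19, adjusted p = 0.17).

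The overlapping probe A_23_P425954 gave -1.20 and -1.23 in WT vs CON (adjusted p = 0.092) and 0.73 and 1.13 for KD1 against WT (adjusted p = 0.14). The other probes lie further toward the 3′ end. A_23_P154426 gave -0.83 and -0.68 for WT against CON and 0.61 and 1.03 for KD1 against WT, and A_24_P122921 gave -0.56 and -0.76 and 0.24 and 1.09, with adjusted p between 0.22 and 0.29. The direction in KD1 vs CON was not settled between replicates. The log2 ratios of the 4 probes lay between -0.54 and -0.40 in replicate 1 and between -0.08 and 0.43 in replicate 2. Without WT replicate 2, the WT vs CON differences of the 4 probes were between -1.08 and -0.41, with adjusted p between 0.088 and 0.37, and the KD1 vs WT differences were between 0.39 and 0.85, with adjusted p between 0.11 and 0.39.

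PMAIP1 had the largest fitted difference of the member probes tested in KD1 against each of the other cultures, without passing the test. Its log2 signals were 10.42 and 10.91 in CON, 10.58 and 10.75 in WT and 11.11 and 12.53 in KD1. Both KD1 extracts lay above all others, and the second KD1 extract stood far above the first, while CON and WT overlapped. The log2 ratios of KD1 were 0.68 and 1.55 against CON (fitted 1.13 ± 0.31, adjusted p = 0.17) and 0.53 and 1.79 against WT (fitted 1.15 ± 0.32, adjusted p = 0.19). In WT vs CON they were 0.15 and -0.16. Without WT replicate 2, the fitted difference was 1.11 against CON (adjusted p = 0.060) and 0.75 against WT (adjusted p = 0.20), and over the alternatives the adjusted p ranged from 0.0031 to 0.28 and from 0.0033 to 0.32, with the lowest from the fit to 12 arrays, which counts dye-swap arrays of the same extracts as separate samples. The 3 nearest tested genes on either side, chosen after these values were seen, lie between 572 kb and 2404 kb away. They had KD1 vs CON differences between 0.15 (RNF152) and 1.1 (SEC11C). Their KD1 vs WT differences lay between -0.30 (PIGN) and 0.36 (RNF152), and their WT vs CON differences between -0.22 (RNF152) and 0.93 (SEC11C).

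PMAIP1 was above 0 on 8 of 8 KD1 arrays and, with mean ratios of 2.16-fold and 2.24-fold, was the only member to meet the selection described in the study's methods, as applied here to each probe. That selection asked for at least 2-fold in both KD1 comparisons in the same direction on every KD1 array, with a signal above the negative controls, and 0.526% of 21882 probes met it as higher in KD1. It is not a test, and replicate 1 alone did not reach 2-fold in either comparison. Replicate 2 alone reached it in both. The paper names only genes lower in KD1 in its list, so whether PMAIP1 was among the genes it counted cannot be told.

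BBC3, like PMAIP1 a BH3-only gene, gave smaller ratios, above 0 in both replicates with 2 of its 3 probes. A_23_P382775 had log2 signals of 11.73 and 12.67 in CON, 11.70 and 12.21 in WT and 11.95 and 13.72 in KD1, so that the cultures overlapped. The KD1 ratios within a replicate were 0.17 and 0.98 against CON (adjusted p = 0.40) and 0.28 and 1.52 against WT (adjusted p = 0.26). A_24_P305312 gave 0.09 and 0.74, and 0.27 and 1.23 (adjusted p = 0.53 and 0.25). Without WT replicate 2, the KD1 vs WT differences of these probes were 0.44 and 0.42 (adjusted p = 0.37 and 0.33). The G- and C-rich probe A_23_P90189 had signals between 16.22 and 16.70 in all 6 extracts and ratios of -0.05 and 0.06 in KD1 vs CON. Against WT, KD1 gave ratios of -0.41 and 0.47, the latter the mean of 2.38 and -1.44 on the arrays of a dye-swap pair. The ratios of replicate 2 were the larger in size for 17 of 22 member probes against WT and for 11 of 20 against CON, beside 47.4% and 57.9% of all tested probes.

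BID, which links death receptors to the mitochondrion, did not hold a direction. A_23_P154929 gave 0.53 and -0.64 in KD1 vs WT, and A_24_P187948 gave 0.17 and -0.53. Their ratios in KD1 vs CON lay between -0.34 and 0.02. The adjusted p values were at least 0.71 in the 3 comparisons.

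**Figure D3:**
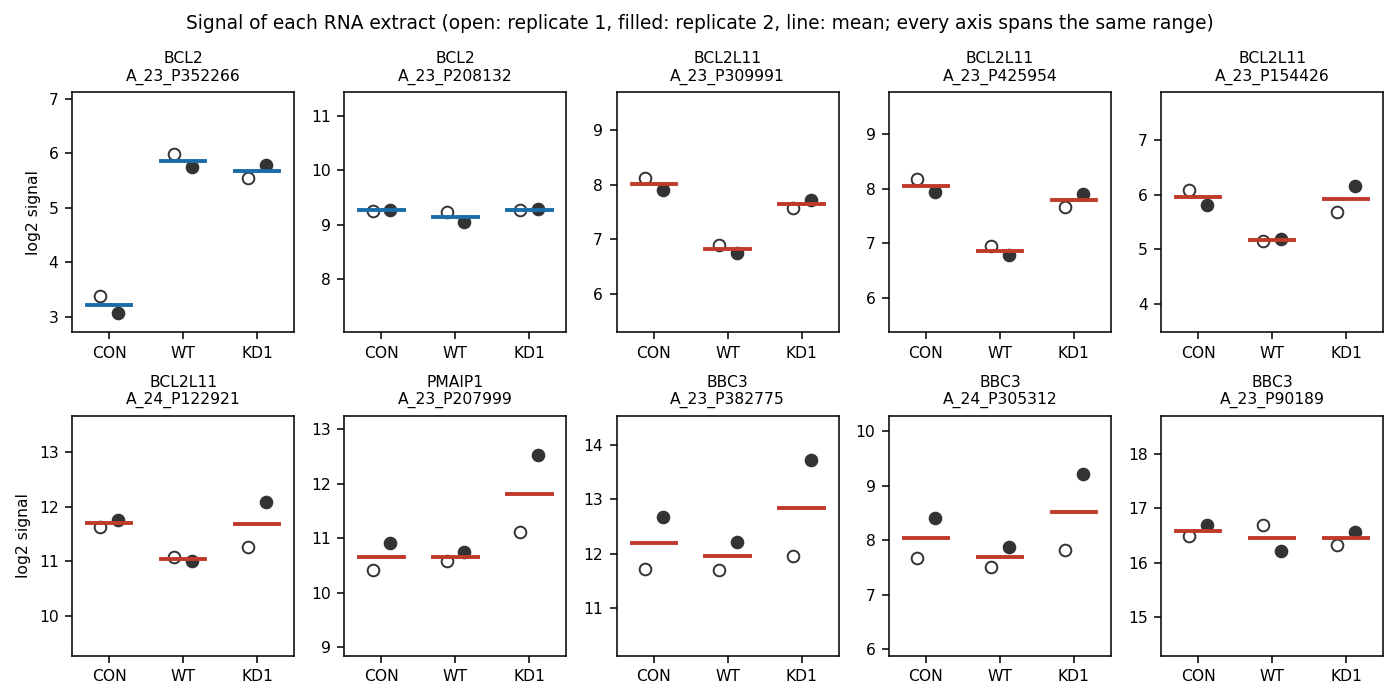
Log2 signal (separate channels, mean of 4 arrays) of each RNA extract for the probes of BCL2, BCL2L11, PMAIP1 and BBC3, with 2 extracts and their mean for CON, WT and KD1. CON is low for the BCL2 3′ probe, WT is low for the BCL2L11 probes, and the second KD1 extract is high for PMAIP1 and for 2 of the 3 BBC3 probes. Levels of different probes are not comparable.

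The other genes of the pathway were read from 3 lists that held 49 genes, all of them on the array, each by its brightest probe. For KD1 against CON, limma called 0 of 37 tested genes, for KD1 against WT 0 of 40, and for WT against CON 0 of 40, while 5, 5 and 6 had an unadjusted p under 0.05. These are 13.5%, 12.5% and 15% of the genes tested, beside 17.0%, 16.9% and 17.0% of all genes by their brightest probe. The mean over all tested probes of a gene also gave 0 calls in each comparison. The median fitted differences of the lists together were -0.17, 0.03 and -0.11, beside -0.02, 0.01 and -0.03 for the brightest probes of all genes.

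Of 16 further BCL2 family genes, 11 were tested in KD1 vs CON, and 4 of these had a positive difference. BMF, a BH3-only gene, had the largest mean ratio among the brightest probes that were tested, with -1.31 and -0.90 for KD1 against CON (adjusted p = 0.40) and -1.52 and 0.94 against WT. MOAP1, an activator of BAX, gave 0.09 and 0.57, and 0.31 and 1.33 (adjusted p = 0.57 and 0.24). BNIP3L, a mitochondrial BH3-like protein, gave -0.11 and -0.47 in KD1 vs CON (adjusted p = 0.55), while its second probe gave 0.17 and 0.03 (adjusted p = 0.84).

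HRK, a BH3-only gene named after its values were seen, had a pair of probes that disagreed. A_23_P25194 gave log2 signals of 5.43 and 6.15 in CON, 5.51 and 6.13 in WT and 7.06 and 9.27 in KD1, so that both KD1 extracts were the highest. The KD1 ratios were 1.64 and 3.20 against CON and 1.46 and 3.0 against WT (adjusted p = 0.075 and 0.11), and it met the study's selection. The brighter probe, A_24_P52882, gave 0.05 and 0.17 in KD1 vs CON and was not tested. BCL2L10, a protective member also named after its values were seen, gave 1.27 and 3.0 for KD1 against WT (adjusted p = 0.13) and 0.51 and 1.63 against CON, where it was not tested. BIK, a BH3-only gene named on the same terms, gave 0.43 and 2.46 for KD1 against CON, where it was not tested, and 1.13 and 0.61 against WT (adjusted p = 0.61). Only 3 of the 8 CON arrays had BIK well above background.

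The mitochondrial apoptosis machinery downstream of the pore was measured by 19 genes, all tested. In KD1 vs CON 6 of the 19 had a positive difference, with a median of -0.18. BIRC3, a caspase and NF-κB pathway regulator, gave 0.70 and 1.89 (adjusted p = 0.27). ENDOG, a mitochondrial nuclease, gave -0.79 and -0.77 (fitted -0.77, adjusted p = 0.12). It gave -0.10 and -0.22 in KD1 vs WT and -0.67 and -0.50 in WT vs CON (adjusted p = 0.65 and 0.20), so that CON was the highest culture. DFFA, the inhibitor of the caspase-activated DNase, gave 0.48 and 0.61 (adjusted p = 0.21).

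Of 14 death receptor pathway genes, 7 were tested for KD1 against CON and 8 for KD1 against WT. By the brightest probe, 0 of the 8 had a positive difference in KD1 vs WT, with a median of -0.16, beside 50.8% of all genes. Other tested probes of CFLAR, CASP8 and FADD had differences of 0.31, 0.21 and 0.08. In KD1 vs CON, 3 of 7 genes had a positive difference. CFLAR, the inhibitor of caspase 8 activation, gave 1.18 and 0.58 in KD1 vs CON (adjusted p = 0.24), and its second probe gave 0.57 and -0.17. TNFRSF1A, the main TNF receptor, gave ratios of 0.14 and 0.47 (adjusted p = 0.50), and the adaptor FADD gave -0.29 and -0.17 (adjusted p = 0.64). FAS, a receptor named after its values were seen, was read by a 10-spot probe. It gave -2.43 and -0.96 for KD1 against WT (adjusted p = 0.17) and 1.71 and -0.04 for WT against CON. For KD1 against CON, where FAS was not tested, the ratios were -0.74 and -0.98. Only 4 of the 8 KD1 arrays had FAS well above background.

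**Figure D4:**
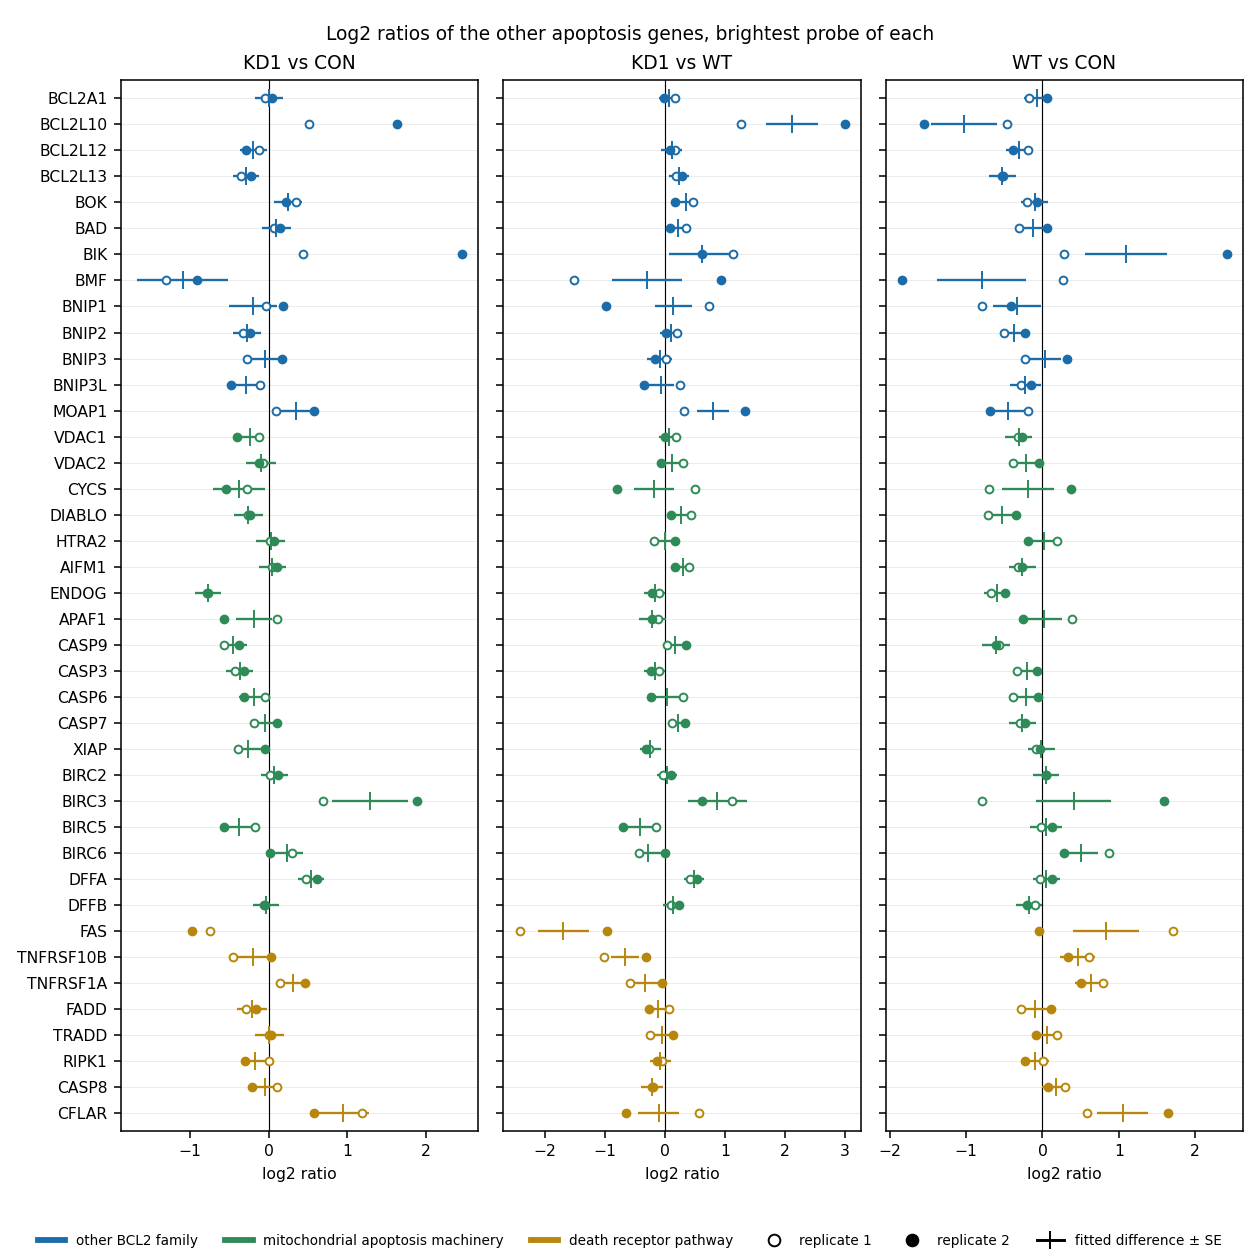
Log2 ratios of the other apoptosis genes tested in at least 1 comparison, a row for each gene by its brightest probe, coloured by list. Circles are the 2 replicate values and bars the fitted difference with its standard error. No gene was called, and HRK is absent because its brightest probe was not tested.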

How the data were processed

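Per the file headers, the authors extracted the arrays with Agilent Feature Extraction 10.5.1.1 and deposited linear intensity values for each spot. The processed signals had been background-subtracted, dye-normalized by lowess within the array and replaced by a surrogate where a spot was not above background. The deposited log10 ratio and the log2 ratios of the deposited series table were computed by the authors from the same processed signals. Labelling used 500 ng of RNA.

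Log2 ratios of the processed signals were turned so that the first culture named was the numerator, averaged over spots without outlier flags and over each dye-swap pair. The 6 values of a probe were reduced by least squares to 6 extract values, centred within a replicate, since extracts were hybridized against each other only within a replicate number. The fit used R 4.3.3 and limma 3.58.1, with culture and replicate as terms of lmFit and moderation by eBayes, leaving 2 residual degrees of freedom. The pairing comes from the hybridizations. In separate-channel levels, the deviations of same-numbered extracts correlated with 0.54 for KD1 and CON, -0.07 for KD1 and WT and -0.02 for WT and CON. Tests were run on probes whose signal after background subtraction exceeded, on each of the 4 arrays that hybridized the cultures compared directly, the 99th percentile of 153 negative controls in 1 or both channels. Levels per extract are separate-channel log2 signals after Aquantile normalization. The replicate ratios correlated over all tested probes with 0.70 for KD1 against CON, 0.39 for KD1 against WT and 0.48 for WT against CON. Precision is limited by the 6 extracts, 2 a culture.

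The named genes were all members with every probe, PAX3, FOXO1 and, from each further list, genes called or meeting the study's selection, filled up to 3 with the largest absolute mean KD1 vs CON ratio among genes whose brightest probe was tested in that comparison. The members and lists were chosen with earlier results of these data known. Positions are those of the files on NCBI36, and no annotation of exons or introns on that build was used here. The fit was tested on simulated data. Python 3.11.15 with pandas 2.3.3 was also used. The alternatives were normexp (offset 50) with loess, median centring, the series table, direct values, a dye effect per slide, no replicate block, other filters and each replicate left out. The alternative without WT replicate 2 was chosen after seeing the data.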

Additional observations from a re-analysis of the deposited data

How the results depend on the processing

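The number of probes called depended on the setting. It was 161 for KD1 against CON, 111 for KD1 against WT and 131 for WT against CON, and in the same order 56, 13 and 31 with a signal well above background required in both channels, 89, 47 and 75 with median centring, 381, 154 and 233 from the direct values, 7268, 8520 and 8686 from the 12 arrays with a dye effect per slide, 0, 1 and 0 with normexp and loess, and 1250, 254 and 222 without WT replicate 2. Without a filter, 84 were called in WT vs CON. The slide fit counts dye-swap arrays of the same extracts as separate samples. With no replicate block, on separate-channel levels that were not centred within a replicate, the counts were 201, 126 and 114, and no member's call changed. Member probes called numbered 0, 0 and 1, the same without WT replicate 2, and 6, 12 and 9 in the slide fit. Without a filter, 1 was called in KD1 vs CON, the BCL2 3′ probe. In WT vs CON, 0 were called with normexp and loess, where the BCL2 difference was 0.37, and 0 with the stricter filter, which removed that probe. With each replicate left out there was no test. Of 703 member differences recomputed, 47 took the opposite sign, none of them called in either setting.

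Probes meeting the study's selection numbered 115 higher and 187 lower in KD1. With the signal limit on a single array they were 253 and 294, and with a replicate left out 72 to 762 and 259 to 311. PMAIP1 met it without replicate 1, while 0 members did without replicate 2. Dim probes limit the BCL2 3′ result, since CON gave only a bound. With 2 replicates a culture, no sample was tested for lying far from its group.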
